A study of Mus musculus with 38 samples.

Results

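The end point of a primed to naive transition was compared with the cells it started from, in 4 of the 38 RNA libraries of the series. The starting cells, kEpiSC (n = 2 libraries), were mouse epiblast stem cells (EpiSC) that stably overexpressed Klf4. The end point, kiPSC (n = 2 libraries), carries a label that says only iPSCs, that is, induced pluripotent stem cells. The 4 libraries were assigned to their groups by their titles, and the comparison itself was chosen with earlier results of these data known. Per the study's methods, EpiSC came from embryos of 129 females crossed with males of the OG2 Oct4-GFP reporter strain, Klf4 was brought in by a lentivirus with a neomycin resistance gene, and stable cells were selected with G418. The results text of the study names a CAG promoter for Klf4. Both groups therefore share the Klf4 transgene and the reporter, and a group without the transgene does not enter the main comparison. The methods describe primed culture with Activin A and bFGF, on feeders or feeder-free, and resetting in iCD1, a medium made for somatic cell reprogramming, with or without SP600125, an inhibitor of c-Jun N-terminal kinases (JNKi). The medium and the passage in which kiPSC were harvested, whether JNKi was used to obtain them, and whether they were 1 clone could not be read from the labels or the methods, so that cell state and medium cannot be told apart. The labels do not say what separated 2 libraries of a group, and p-values therefore rest on a spread that may be technical. That spread was estimated over 17 libraries of the Klf4 line, most of them from intermediate days in iCD1 with or without JNKi. The kEpiSC and kiPSC pairs supply only part of it.

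Pluripotent cells exist in more than one state. Naive cells resemble the epiblast of the blastocyst, and rest on transcription factors such as Esrrb, Nanog, Tfcp2l1 and members of the Klf family; primed cells resemble the epiblast after implantation, depend on FGF and Activin, and have begun to prepare for the choice between germ layers. Pou5f1, which encodes Oct4, and Sox2 serve in both states. Klf4 can drive primed cells back to the naive state when the medium permits it, which is the use it had in this cell line.

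The totals of expected counts were 15.9 and 15.8 M in kEpiSC and 8.96 and 5.66 M in kiPSC, so that genes with few reads were read more finely in the starting cells. In the following, levels are CPM, the counts of a gene per M counts of its library after TMM scaling, always given for replicate 1 and then replicate 2, and changes are log2 fold changes of kiPSC against kEpiSC with the standard error (SE) of edgeR's quasi-likelihood fit. A gene was called at a Benjamini-Hochberg adjusted p under 0.05 over all genes tested. Where a group had no count, the fold is a lower bound with 3 counts set over that group, and with 1 to 3 counts it is a ratio with an interval. Both cover counting error only. Over the genes measured in each pair, log2 TPM correlated at 0.993 between the kEpiSC libraries and at 0.961 between the kiPSC libraries, a description across genes, and the pair of kiPSC libraries differed more (chi-square per degree of freedom 19.7 against 6.43). The effective length that RSEM used fell short of the gene length by 160 to 161 bases in kiPSC and by 171 bases in kEpiSC. Its part in the results was not tested.

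The change was broad. Of 14892 genes tested, 8559 were called (57.5%), 4206 higher in kiPSC (28.2%) and 4353 lower (29.2%). At least 2-fold higher were 2686 genes (18.0%) and at least 2-fold lower 2546 (17.1%), while the median over all genes was -0.03. Against this background, lists differed mainly in the direction of their calls. All 23 primed genes fell and 25 of 26 naive genes rose, and genes of ERK feedback, glycolysis and the hypoxia response mostly fell. Of the 23 germline genes that could be tested 20 rose, or 13 with DESeq2. Of these 23, 9 had no reads in kEpiSC and passed the filter only through other libraries, so that they could hardly be lower. The lists were chosen with earlier results of these data known, so that their counts are descriptions and not tests. The plot of the lists shows each member. A call on its own says little here, since 57.5% of all genes had one, and several lists with calls in both directions did not stand apart from the whole.

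**Figure D1:**
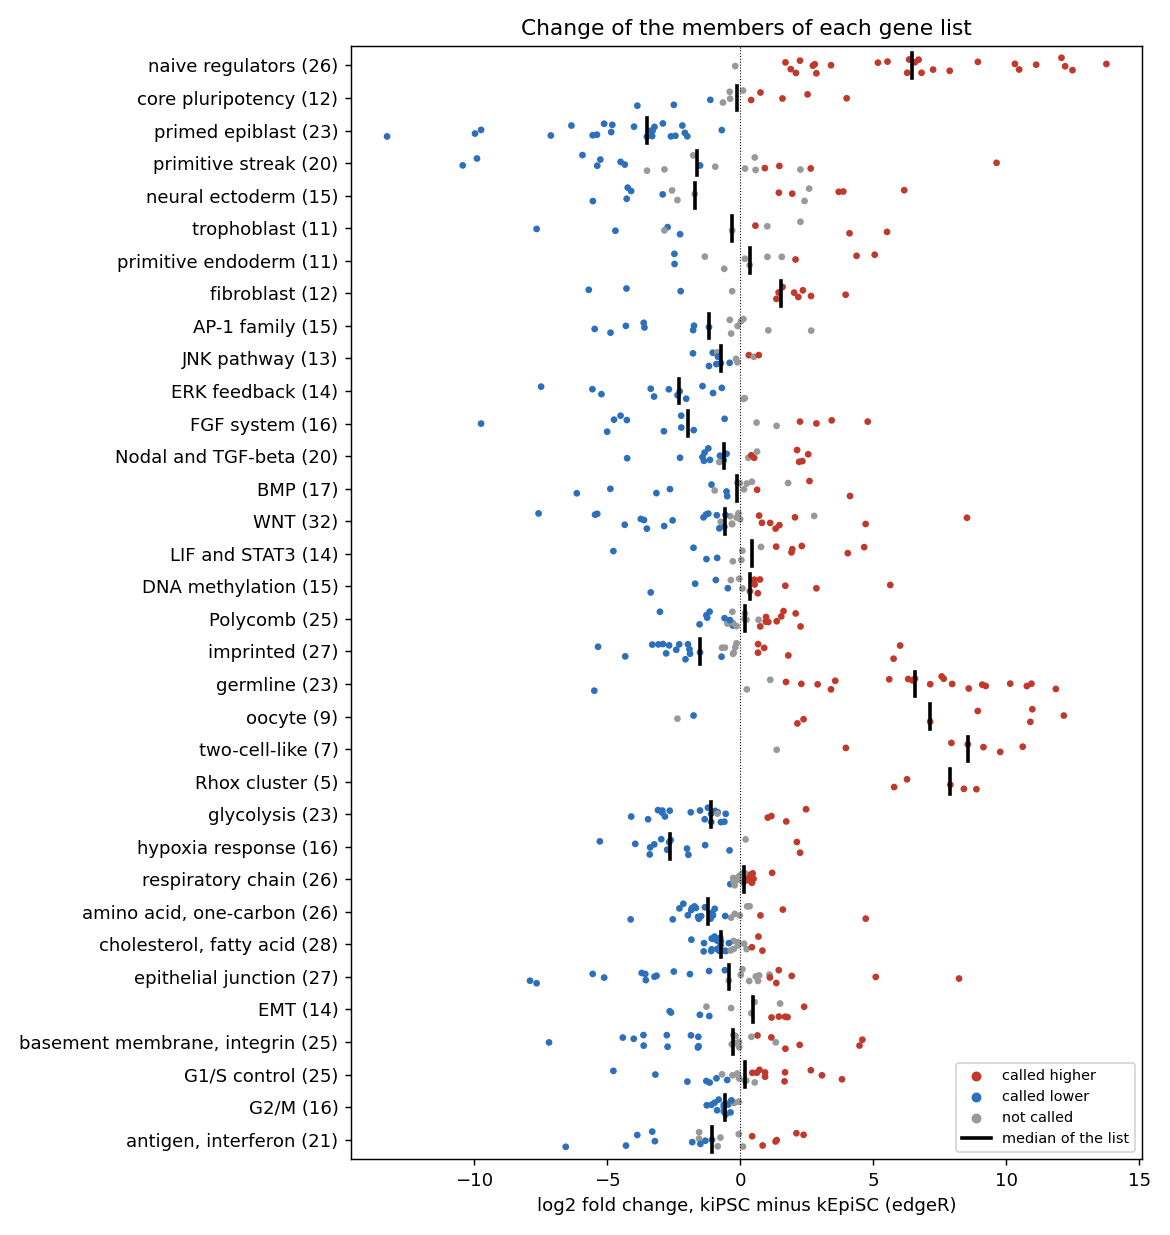
Log2 fold change of kiPSC against kEpiSC for each tested member of 34 gene lists, with the number tested in parentheses; points are genes, coloured by call, and black bars are list medians. The naive (median 6.45), germline (6.56), two-cell-like (8.55) and Rhox (7.89) lists lie to the right (6.45, 5.60, 5.95 and 5.78 with genes without reads at their bound), and the primed (-3.52), hypoxia (-2.65) and ERK feedback (-2.32) lists to the left.

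The naive regulators were examined first, a list chosen, like the primed list, with earlier results of these data known. Of 26 genes 25 rose and 0 fell, by a median of 6.45, and their summed level went from 691 and 722 CPM to 10200 and 7950 CPM. Some were silent before. Tbx3, a T-box factor that sustains self-renewal, stood at 0 in both kEpiSC libraries and at 259 and 184 CPM in kiPSC (at least 2296-fold higher). Tcl1, a coactivator of the kinase Akt, reached 100.0 and 83 CPM from 0 (at least 935-fold higher). Nr0b1, an orphan nuclear receptor also called Dax1, reached 90.6 and 60.3 CPM from 0 (at least 788-fold higher). Prdm14, which represses FGF signalling and de novo DNA methylation in naive cells, had the closest pair of kiPSC libraries among these, with 70.0 and 67.5 CPM (at least 691-fold higher). Dppa3, a maternal factor that protects imprints, was also at 0 in kEpiSC, but its kiPSC libraries were far apart at 60.3 and 9.64 CPM (at least 404-fold higher, or at least 96.6-fold without kiPSC replicate 1 and at least 605-fold without kiPSC replicate 2).

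Others were transcribed at a low level in kEpiSC. Dppa5a, an RNA-binding protein of naive cells, stood at 0.990 and 1.27 CPM in kEpiSC and 1534 and 1399 CPM in kiPSC (log2 fold change 10.32 ± 0.40), and had the highest level per length of the list in kiPSC (5627 TPM). Jam2, a junctional adhesion molecule, stood at 0.264 and 0.470 CPM in kEpiSC and 558 and 533 CPM in kiPSC (10.48 ± 0.55). Zfp42, which encodes the marker Rex1, stood at 0.858 and 1.88 CPM in kEpiSC and 396 and 248 CPM in kiPSC (7.87 ± 0.46). Esrrb, an orphan nuclear receptor at the centre of the naive network, stood at 4.82 and 6.77 CPM in kEpiSC and 785 and 517 CPM in kiPSC (6.81 ± 0.51). Tfcp2l1, another factor of that network, was at 8.25 and 10.8 CPM in kEpiSC and 1082 and 899.7 CPM in kiPSC (6.70 ± 0.38). Klf2, a factor with functions that overlap those of Klf4, stood at 3.76 and 4.90 CPM in kEpiSC and 418 and 251 CPM in kiPSC (6.27 ± 0.38). In each of these 6 genes both kiPSC libraries lay far above both kEpiSC libraries, a description of 2 libraries in each group. Zfp42 (8.53) without kEpiSC replicate 2 kept its call with a fold that moved by over 1.5 times.

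Nanog and Klf4 started from a substantial level and moved less. Nanog stood at 152 and 99.5 CPM in kEpiSC and 1065 and 599 CPM in kiPSC (log2 fold change 2.72 ± 0.46). Klf4 stood at 71.9 and 102 CPM in kEpiSC and 295 and 267 CPM in kiPSC (1.69 ± 0.16); reads of the transgene and of the endogenous gene were counted together, so that the share of either in the rise was not measured. Gbx2, a homeobox gene downstream of LIF, was the 1 member without a call, at 11.8 and 13.2 CPM in kEpiSC and 11.7 and 9.99 CPM in kiPSC (adjusted p = 0.434).

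Genes that both states use did not follow one direction. Of 12 core genes 5 rose, 3 fell and 4 had no call, a share of calls (66.7%) near that of all genes. Without kEpiSC replicate 2 or kiPSC replicate 1, 3 rose; 6 fell with no filter beyond 1 count, and 5 fell with the 4 libraries alone or without the JNKi libraries. Pou5f1 stood at 1448 and 1504 CPM in kEpiSC and 1200 and 1056 CPM in kiPSC (-0.39 ± 0.23, adjusted p = 0.163) and had no call. It was called lower in 3 other fits, without the filter on low counts (adjusted p = 0.00144), with the 4 libraries alone (0.0493) and without the libraries treated with JNKi (0.0413). Sox2, by contrast, stood at 92.8 and 79.5 CPM in kEpiSC and 627 and 364 CPM in kiPSC (2.52 ± 0.28). Gdf3, a TGF-beta family ligand, stood at 4.09 and 7.58 CPM in kEpiSC and 109.8 and 76.2 CPM in kiPSC (3.99 ± 0.37). Sall1, a zinc finger partner of Nanog, was at 75 and 69.8 CPM in kEpiSC and 284 and 147 CPM in kiPSC (1.58 ± 0.23). Utf1, a chromatin factor bound by Oct4 and Sox2, moved the other way, from 609 and 659.6 to 54.3 and 31.2 CPM (-3.88 ± 0.43). Epcam, an adhesion molecule, stood at 419 and 466 CPM in kEpiSC and 29.8 and 129 CPM in kiPSC (-2.50 ± 0.43). Zfp281, a zinc finger factor, had no call and nearly equal levels (90.0 and 80.9 CPM in kEpiSC and 91.1 and 91.8 CPM in kiPSC). Epcam (-1.79) without kiPSC replicate 1, and Epcam (-3.89) without kiPSC replicate 2 kept its call with a fold that moved by over 1.5 times.

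**Figure D2:**
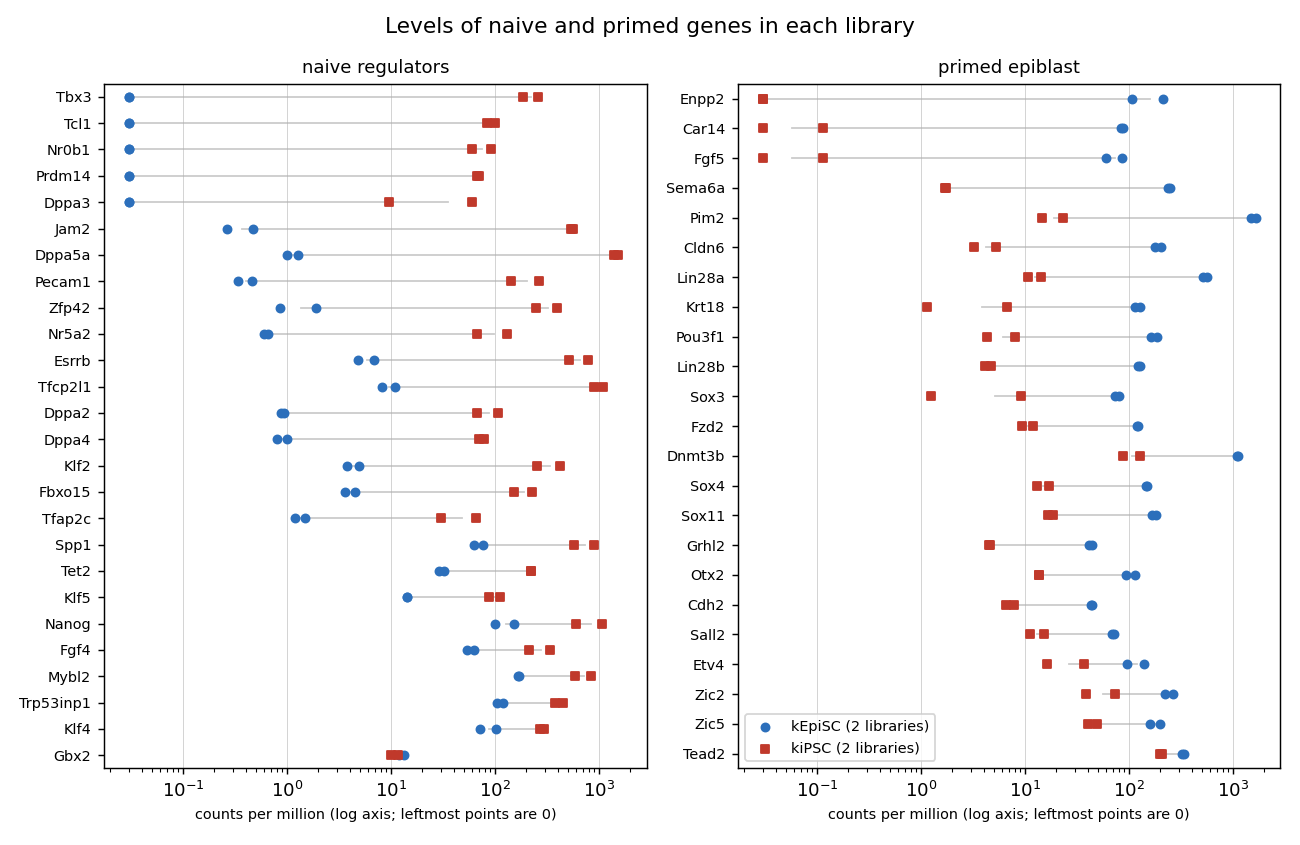
CPM (log axis) of each naive regulator (left) and primed gene (right) in the 4 libraries; circles are the kEpiSC libraries, squares the kiPSC libraries, leftmost points are 0, and grey lines join the group means. All naive regulators except Gbx2 lie higher in kiPSC, and all primed genes lie lower.

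All 23 primed genes fell, by a median of -3.52, and their summed level went from 6000 and 6110 CPM to 557 and 603 CPM. Enpp2, which encodes the lysophospholipase autotaxin, stood at 108 and 211 CPM in kEpiSC and had no count in kiPSC (at least 765-fold lower). Car14, a membrane carbonic anhydrase, stood at 84 and 88.1 CPM and kept 1 count in kiPSC (lower, ratio 1241, 95% counting interval 223 to 49033). Fgf5, the classical marker of the epiblast after implantation, stood at 86.4 and 60.2 CPM and also kept 1 count (lower, ratio 1059, 95% counting interval 189.8 to 41830). The primed gene with the highest level per length in kEpiSC (1402 TPM) was Pim2, a serine/threonine kinase, at 1496 and 1662 CPM in kEpiSC and 23.3 and 14.5 CPM in kiPSC (-6.35 ± 0.20). Sema6a, a semaphorin, stood at 239 and 251 CPM in kEpiSC and 1.72 and 1.75 CPM in kiPSC (-7.13 ± 0.21). The tight junction gene Cldn6 was at 205 and 179.9 CPM in kEpiSC and 3.21 and 5.26 CPM in kiPSC (-5.55 ± 0.40). These 3 fell in both kiPSC libraries alike. Lin28a, which blocks the maturation of let-7 microRNAs, stood at 561 and 511 CPM in kEpiSC and 14.3 and 10.7 CPM in kiPSC (-5.40 ± 0.20). Otx2, which helps to set up primed enhancers, kept more of its level, at 93.7 and 114 CPM in kEpiSC and 13.8 and 13.7 CPM in kiPSC (-2.92 ± 0.43). Tead2, a factor downstream of Hippo signalling, kept the most, at 341 and 325 CPM in kEpiSC and 200.0 and 209 CPM in kiPSC (-0.70 ± 0.10).

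Markers of cell types that could arise from primed cells, or could be left in the culture, were counted next. In bulk libraries fewer cells of a type and less RNA per cell cannot be told apart. Of 20 primitive streak genes 8 fell and 4 rose, a share of calls (60.0%) near that of all genes (57.5%). The Nodal antagonist Cer1 stood at 28.9 and 15.5 CPM in kEpiSC and 0 in kiPSC (at least 107-fold lower). Lhx1, a LIM homeobox gene, went from 19.3 and 11.3 CPM to 0 (at least 73.7-fold lower). T, the Brachyury gene, stood at 48 and 38.5 CPM in kEpiSC and 1.03 and 0.175 CPM in kiPSC (-5.94 ± 0.32). Foxa2, a forkhead factor of endoderm, was at 17.3 and 10.6 CPM in kEpiSC and 0.344 and 0.350 CPM in kiPSC (-5.27 ± 0.53). These 4 genes were low or at 0 in kiPSC, while the summed level of the list was 281 and 184 CPM in kEpiSC and 159 and 169 CPM in kiPSC. Of the 20 genes 2 rose without kEpiSC replicate 2 and 2 with all 38 libraries in the fit. Cdx1, a caudal homeobox gene that responds to WNT and retinoic acid, moved against them, from 2 counts in kEpiSC to 36.8 and 95.8 CPM in kiPSC (higher, ratio 904, 95% counting interval 249.6 to 7480). T (-7.84) without kiPSC replicate 1 kept its call with a fold that moved by over 1.5 times.

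Neural genes were mixed, with 5 of 15 tested genes higher and 5 lower (66.7% called, against 57.5% of all genes). Nes, the intermediate filament nestin, stood at 336 and 299.8 CPM in kEpiSC and 24.4 and 11.2 CPM in kiPSC (-4.11 ± 0.33). The microtubule protein gene Map2 was at 37.9 and 36.8 CPM in kEpiSC and 1.49 and 2.63 CPM in kiPSC (-4.24 ± 0.35). Nefm, a neurofilament subunit, stood at 3.96 and 1.88 CPM in kEpiSC and 28.2 and 48.2 CPM in kiPSC (3.70 ± 0.68). Sox1, which marks the neural plate, stood at 0.726 and 0.335 CPM in kEpiSC and 4.82 and 11.4 CPM in kiPSC (3.87 ± 0.69). Pax6, Pax3 and Zic1 stayed under 1 CPM in each of the 4 libraries. Among 11 tested trophoblast genes 3 rose and 4 fell (63.6% called). The keratin Krt19 stood at 78.4 and 69.1 CPM in kEpiSC and 0.229 and 0.526 CPM in kiPSC (-7.66 ± 0.66). The AP-2 factor Tfap2a stood at 0.462 and 0.268 CPM in kEpiSC and 16.4 and 18.4 CPM in kiPSC (5.51 ± 0.46). Of 11 tested primitive endoderm genes 3 rose and 2 fell (45.5% called). Only 1 rose without kEpiSC replicate 2, without kiPSC replicate 2 or with limma. Gata4 stood at 0.660 and 0.201 CPM in kEpiSC and 3.21 and 15.6 CPM in kiPSC (4.37 ± 0.84). Gata6 and Sox17, which define that lineage with it, had no call (6.07 and 2.88 CPM in kEpiSC and 0.803 and 5.43 CPM in kiPSC for Gata6). Gata4 (5.41), Nefm (4.34) and Sox1 (4.51) without kEpiSC replicate 1, and Gata4 (3.78) without kEpiSC replicate 2, and Gata4 (5.11) and Nes (-4.84) without kiPSC replicate 1, and Gata4 (2.85) and Sox1 (3.14) without kiPSC replicate 2 kept their calls with a fold that moved by over 1.5 times. Gata6 (-2.46, adjusted p = 0.0334) without kiPSC replicate 2 gained a call.

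Genes of fibroblasts, the cells used as feeders, moved in 11 of 12 tested cases, 8 higher and 3 lower, and their summed level was 132 to 180 CPM in kEpiSC and 123 to 313 CPM in kiPSC. The collagens of connective tissue were higher in the fit of 17 libraries. Col3a1 stood at 4.03 and 3.76 CPM in kEpiSC and 92.2 and 27.5 CPM in kiPSC (3.95 ± 0.46). Col1a1 was at 11.7 and 11.6 CPM in kEpiSC and 106 and 39.8 CPM in kiPSC (2.65 ± 0.52). Replicate 1 of kiPSC held the higher level of both, and Dcn and Lum, further genes of that tissue, were also higher in replicate 1 (4.93 and 0.876 CPM for Dcn, and 25 and 6 counts for Lum, which was too low to test). The contractile genes fell: Tagln stood at 87.3 and 63.2 CPM in kEpiSC and 1.95 and 0.701 CPM in kiPSC (-5.70 ± 0.74). Acta2, smooth muscle actin, was at 41.1 and 28.2 CPM in kEpiSC and 2.52 and 0.701 CPM in kiPSC (-4.28 ± 0.40). Without kiPSC replicate 1, 5 of the 12 genes were higher, as were 5 with limma on log2(TPM + 1), 3 of 13 with all 38 libraries in the fit and 1 of 12 in the fit with ESC and EpiSC. Col1a1 lost its call by edgeR's quasi-likelihood test with all 38 libraries (adjusted p = 0.118) and with ESC and EpiSC (adjusted p = 0.282), and Col3a1 lost it with ESC and EpiSC (adjusted p = 0.162). The part of such cells in the matrix genes described further on was not tested. Of 12 genes of blood and endothelium, 6 could be tested and 3 rose, led by the angiopoietin receptor gene Tek at 2.11 and 1.54 CPM in kEpiSC and 26 and 24.5 CPM in kiPSC (3.78 ± 0.52), while Hba-x and Hbb-bh1 had no count in the 4 libraries. Acta2 (-5.61), Col1a1 (1.75), Col3a1 (2.80) and Tagln (-6.73) without kiPSC replicate 1, and Col3a1 (4.56) without kiPSC replicate 2 kept their calls with a fold that moved by over 1.5 times. Dcn (2.48, adjusted p = 0.0513) without kEpiSC replicate 1, and Dcn (1.93, adjusted p = 0.104) without kEpiSC replicate 2, and Dcn (0.37, adjusted p = 0.767) without kiPSC replicate 1 lost its call.

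The feedback genes of ERK signalling, which rise when FGF activates the pathway and serve to restrain it, fell in 12 of 14 cases and rose in 0, by a median of -2.32. The phosphatases that switch off ERK led the list. Dusp6 stood at 261 and 314 CPM in kEpiSC and 7.57 and 4.03 CPM in kiPSC (log2 fold change -5.57 ± 0.33). Dusp4 was at 82.6 and 99.1 CPM in kEpiSC and 0.229 and 0.876 CPM in kiPSC (-7.49 ± 0.32). Dusp5 was at 46.7 and 52.8 CPM in kEpiSC and 4.13 and 6.66 CPM in kiPSC (-3.25 ± 0.35). Spry4, an inhibitor of receptor tyrosine kinases, stood at 54.2 and 66.9 CPM in kEpiSC and 1.38 and 1.93 CPM in kiPSC (-5.23 ± 0.45). The pleckstrin domain gene Phlda1 was at 27.6 and 30.0 CPM in kEpiSC and 1.61 and 4.38 CPM in kiPSC (-3.37 ± 0.37). In all of these, both kiPSC libraries were low. The members without a call were Etv5, an ETS factor (403 and 405 CPM in kEpiSC and 525 and 378 CPM in kiPSC, adjusted p = 0.399), and Egr1. The kiPSC libraries lay on either side of the kEpiSC level for Egr1, an immediate early gene (52.1 and 68.4 CPM in kEpiSC and 106 and 21.2 CPM in kiPSC). Dusp4 (-6.69), Dusp6 (-6.17) and Phlda1 (-2.73) without kiPSC replicate 1, and Dusp4 (-8.54) and Phlda1 (-4.16) without kiPSC replicate 2 kept their calls with a fold that moved by over 1.5 times. Egr1 (-1.52, adjusted p = 4.97e-04) without kiPSC replicate 1, and Egr1 (0.81, adjusted p = 0.00928) without kiPSC replicate 2 gained a call.

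FGF ligands moved in both directions. Of 16 genes of the FGF system 10 fell and 4 rose (87.5% called, against 57.5% of all genes). Besides Fgf5, Fgf8 stood at 14 and 5.57 CPM in kEpiSC and 0.459 and 0.350 CPM in kiPSC (-4.51 ± 0.67). Of the carrier proteins, which release FGF from the matrix, Fgfbp1 was at 95.8 and 96.2 CPM in kEpiSC and 3.21 and 2.63 CPM in kiPSC (-5.01 ± 0.34). Fgfbp3 was at 32.7 and 40.5 CPM in kEpiSC and 0.803 and 2.10 CPM in kiPSC (-4.75 ± 0.46). Fgf4, the ligand of the inner cell mass, rose from 53.5 and 62.6 to 337 and 211 CPM (2.24 ± 0.40). Fgf3 rose from 0.330 and 0.268 to 7.34 and 10.2 CPM (4.79 ± 0.43). The receptor gene Fgfr1 fell by less, at 179.9 and 177 CPM in kEpiSC and 125 and 111 CPM in kiPSC (-0.60 ± 0.14). Fgf8 (-3.68) without kEpiSC replicate 1, and Fgfbp3 (-4.13) without kiPSC replicate 1, and Fgfbp3 (-5.49) without kiPSC replicate 2 kept their calls with a fold that moved by over 1.5 times.

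The AP-1 family, the bZIP factors to which c-Jun belongs, fell in 8 of 15 tested cases and rose in 0, with a median of -1.18. The share of calls (53.3%) was near that of all genes (57.5%), of which 29.2% were called lower. Jun (ENSMUSG00000052684, mm10 chromosome 4, 95049034 to 95052222, minus strand) stood at 55.8 and 69.6 CPM in kEpiSC and 5.51 and 4.38 CPM in kiPSC (-3.64 ± 0.53). Its partners moved with it in part: Atf3, a stress-induced member, stood at 24.8 and 26.2 CPM in kEpiSC and 0.344 and 1.58 CPM in kiPSC (-4.88 ± 0.56). Fosl2, a Fos relative, was at 27.3 and 30.2 CPM in kEpiSC and 2.52 and 2.10 CPM in kiPSC (-3.61 ± 0.32). The small Maf gene Maff stood at 58.8 and 72.6 CPM in kEpiSC and 2.06 and 4.91 CPM in kiPSC (-4.31 ± 0.40). The paralogue Jund had no call, with kiPSC libraries far apart (148 and 159 CPM in kEpiSC and 80.6 and 162 CPM in kiPSC, adjusted p = 0.375). Neither had Fos (4.16 and 5.57 CPM in kEpiSC and 14.8 and 4.03 CPM in kiPSC, adjusted p = 0.184). Mafg and Bach1, which bind DNA together, had nearly equal levels in both groups, with 125 and 148 CPM in kEpiSC and 144 and 152 CPM in kiPSC for Mafg and 69.2 and 74.1 CPM in kEpiSC and 70.2 and 75.2 CPM in kiPSC for Bach1. Of 13 tested genes of the JNK pathway, which acts upstream of c-Jun, 7 fell and 2 rose (69.2% called). The largest change among those tested was that of the scaffold gene Mapk8ip1, at 61.5 and 57.2 CPM in kEpiSC and 11 and 24.4 CPM in kiPSC (-1.78 ± 0.27). Mapk8, which encodes JNK1, stood at 68 and 65.4 CPM in kEpiSC and 38.1 and 42.2 CPM in kiPSC (-0.73 ± 0.13). Mapk10, which encodes JNK3, was too low to test, with 23 and 20 counts in kEpiSC and 1 and 0 counts in kiPSC. Atf3 (-4.02) without kiPSC replicate 1, and Atf3 (-6.15), Maff (-4.98) and Mapk8ip1 (-2.43) without kiPSC replicate 2 kept their calls with a fold that moved by over 1.5 times. Jund (-0.93, adjusted p = 0.0352) without kiPSC replicate 2 gained a call.

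Nodal signalling serves both primed cells and the early embryo. Of 20 tested genes 6 rose and 11 fell (85.0% called, against 57.5% of all genes), or 7 fell with all 38 libraries in the fit. The ligand Nodal stood at 43.6 and 27.8 CPM in kEpiSC and 151 and 179 CPM in kiPSC (2.21 ± 0.45). Its feedback inhibitor Lefty2 was at 64.6 and 55 CPM in kEpiSC and 242 and 361 CPM in kiPSC (2.33 ± 0.45). Smad7, an inhibitory Smad, was at 23 and 16.2 CPM in kEpiSC and 86 and 85.3 CPM in kiPSC (2.13 ± 0.24). For these 3 genes both kiPSC libraries were above both kEpiSC libraries, which with 2 libraries in each group is a description and not a test. Lefty1, the paralogue of Lefty2, had no call (115 and 47.6 CPM in kEpiSC and 105 and 95.1 CPM in kiPSC). Among the genes that fell were the co-receptor gene Cfc1 (lower, ratio 21.4, 95% counting interval 5.74 to 179) and Tgfb1 (19.1 and 19.3 CPM in kEpiSC and 4.47 and 3.33 CPM in kiPSC, -2.27 ± 0.33). Inhbb, which encodes a subunit of activin B, rose from 1.25 and 0.805 to 5.28 and 7.01 CPM (2.55 ± 0.57). In the BMP list 3 of 17 genes rose and 7 fell, a share of calls (58.8%) at that of all genes. The ligand Bmp2 fell (lower, ratio 79.4, 95% counting interval 21.8 to 658), as did its antagonist Nog (lower, ratio 32.6, 95% counting interval 8.86 to 272). Of the target genes, which inhibit differentiation, Id1 stood at 16.5 and 15.7 CPM in kEpiSC and 2.18 and 1.23 CPM in kiPSC (-3.16 ± 0.32). Id2 stood at 28 and 24.9 CPM in kEpiSC and 3.67 and 4.91 CPM in kiPSC (-2.65 ± 0.46). Bmp4 fell by less (5.08 and 5.84 CPM in kEpiSC and 1.84 and 3.50 CPM in kiPSC, -1.09 ± 0.34). The homeobox gene Msx2 rose from 0.462 and 0.134 to 3.44 and 7.71 CPM (4.12 ± 0.52). Msx2 (5.19) without kEpiSC replicate 1, and Msx2 (3.52) without kEpiSC replicate 2, and Msx2 (3.45) without kiPSC replicate 2 kept its call with a fold that moved by over 1.5 times. Bmp4 (-0.98, adjusted p = 0.0624) without kEpiSC replicate 2, and Bmp4 (-0.65, adjusted p = 0.192) without kiPSC replicate 1 lost its call.

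Of 32 WNT genes 16 fell and 8 rose (75.0% called, against 57.5% of all genes). Among ligands and extracellular regulators, Wnt3 stood at 8.91 and 8.25 CPM in kEpiSC and 0.688 and 0 CPM in kiPSC (-4.35 ± 0.82). Wnt8a was at 44.7 and 21.2 CPM in kEpiSC and 0.229 and 1.58 CPM in kiPSC (-5.38 ± 0.57). The antagonist Dkk1 was at 12.4 and 7.31 CPM in kEpiSC and 0.229 and 0.175 CPM in kiPSC (lower, ratio 47.5, 95% counting interval 16.1 to 232). Rspo3, a ligand that raises WNT response, went from 2.71 and 3.42 CPM to 0 (at least 14.7-fold lower). Genes known as feedback targets of the pathway went in both directions. Notum, an enzyme that inactivates WNT ligands, stood at 0.330 and 0.335 CPM in kEpiSC and 134 and 122 CPM in kiPSC (8.52 ± 0.45). Axin2, the usual readout of beta-catenin activity, was at 12.3 and 10.3 CPM in kEpiSC and 71.1 and 20.7 CPM in kiPSC (2.05 ± 0.41), with replicate 1 of kiPSC well above replicate 2. Nkd1, another feedback inhibitor, stood at 8.71 and 6.77 CPM in kEpiSC and 2.18 and 4.03 CPM in kiPSC (-1.39 ± 0.34). Receptors moved in both directions, with Fzd10 at 4.49 and 2.82 CPM in kEpiSC and 113 and 78.5 CPM in kiPSC (4.71 ± 0.27). Fzd2 was at 123 and 119 CPM in kEpiSC and 9.29 and 12.1 CPM in kiPSC (-3.52 ± 0.23). Lef1, a partner of beta-catenin, fell from 49.5 and 42.8 to 6.42 and 0 CPM (-3.63 ± 0.47). Ctnnb1, beta-catenin itself, had no call (876 and 839 CPM in kEpiSC and 945 and 679.6 CPM in kiPSC). Axin2 (2.64), Lef1 (-2.85), Wnt3 (-3.61) and Wnt8a (-7.07) without kiPSC replicate 2, and Lef1 (0 in the other kiPSC library), Wnt3 (0 in the other kiPSC library) and Wnt8a (-4.39) without kiPSC replicate 1, and Wnt8a (-4.73) without kEpiSC replicate 1 kept their calls with a fold that moved by over 1.5 times. Axin2 (0.85, adjusted p = 0.0578) and Nkd1 (-0.96, adjusted p = 0.0748) without kiPSC replicate 1 lost their calls. Ctnnb1 (-0.35, adjusted p = 0.00425) without kiPSC replicate 1 gained a call.

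LIF is the cytokine of naive culture, and of 14 genes of its pathway 6 rose and 4 fell (71.4% called, against 57.5% of all genes). Stat3, the effector of the pathway, stood at 24.2 and 31 CPM in kEpiSC and 143 and 129 CPM in kiPSC (2.31 ± 0.13). Of the receptor chains, Lifr was at 13.6 and 19 CPM in kEpiSC and 64.6 and 61.5 CPM in kiPSC (1.95 ± 0.26). Il6st was at 46.3 and 42.8 CPM in kEpiSC and 198 and 139 CPM in kiPSC (1.92 ± 0.16). The cytokine receptor gene Il6ra stood at 1.39 and 0.738 CPM in kEpiSC and 14.2 and 21.4 CPM in kiPSC (4.04 ± 0.41). Bcl3, a STAT3 target that acts with NF-kappaB, rose the most, from 2.38 and 1.61 to 59.8 and 41 CPM (4.65 ± 0.26). Jak1 and Jak2, the kinases of the receptor, had no call (73.5 and 86.9 CPM in kEpiSC and 67 and 98.1 CPM in kiPSC for Jak1). Myc, a known target of STAT3 in naive cells, fell, from 139.7 and 121 to 6.88 and 1.93 CPM (-4.78 ± 0.52). The medium of kiPSC is not given, and its part in the changes of the FGF, Nodal, WNT and LIF genes was not tested. Myc (-6.08) without kiPSC replicate 1 kept its call with a fold that moved by over 1.5 times.

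**Figure D3:**
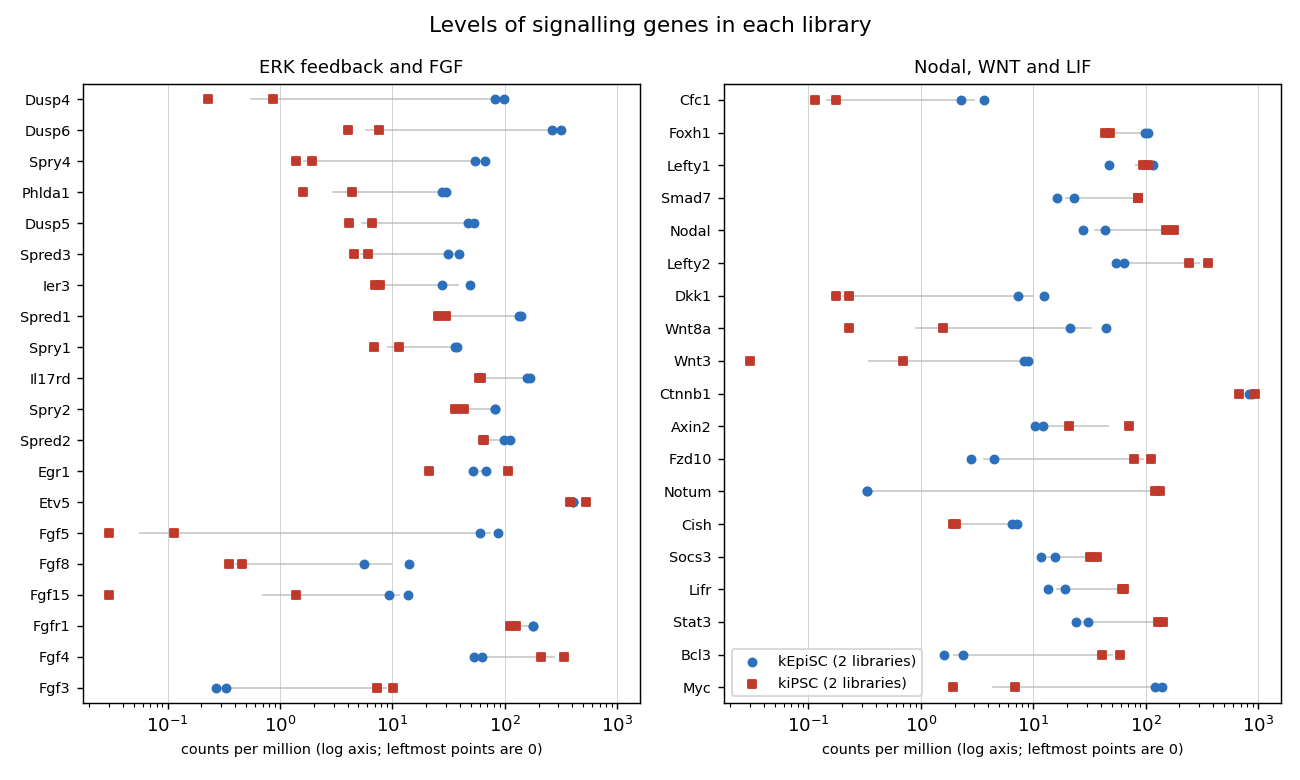
CPM (log axis) of genes of ERK feedback and FGF (left) and of Nodal, WNT and LIF signalling (right) in the 4 libraries; circles are kEpiSC, squares kiPSC, leftmost points are 0, and grey lines join the group means. The Dusp and Spry genes lie lower in kiPSC, Etv5 lies at about the same level, and Nodal, Lefty2, Notum, Fzd10, Stat3 and Bcl3 lie higher.

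Of 15 genes of the methylation machinery 8 rose and 4 fell. Dnmt3b, the main de novo methyltransferase of primed cells, stood at 1119 and 1097 CPM in kEpiSC and 87.7 and 127 CPM in kiPSC (-3.37 ± 0.18). Dnmt3a was at 131 and 132 CPM in kEpiSC and 35.2 and 45.9 CPM in kiPSC (-1.70 ± 0.13). Dnmt3l, a cofactor of these enzymes without activity of its own, rose from 0.0660 and 0.268 to 5.85 and 12.4 CPM (5.63 ± 1.02). Tet2, which oxidises 5-methylcytosine, rose from 28.8 and 32.1 to 220.4 and 220.1 CPM (2.86 ± 0.23). Zfp57, which guards methylation at imprinted loci, stood at 109 and 118 CPM in kEpiSC and 450.3 and 279 CPM in kiPSC (1.69 ± 0.21). The maintenance methyltransferase Dnmt1 rose by less, at 383 and 366 CPM in kEpiSC and 555 and 534 CPM in kiPSC (0.54 ± 0.09). Of 25 Polycomb genes 9 rose and 8 fell, a share of calls (68.0%) not far from that of all genes, and 5 fell with limma on log2(TPM + 1). Bmi1, a subunit of PRC1, stood at 5.81 and 5.30 CPM in kEpiSC and 29.6 and 23.5 CPM in kiPSC (2.26 ± 0.20). Mtf2, an accessory factor of PRC2, was at 118 and 123 CPM in kEpiSC and 387 and 354 CPM in kiPSC (1.62 ± 0.13). By contrast, Phf19, another accessory factor of PRC2, stood at 18.1 and 25 CPM in kEpiSC and 1.49 and 4.03 CPM in kiPSC (-3.03 ± 0.50). The PRC1 subunit gene Phc1 stood at 861 and 867 CPM in kEpiSC and 335 and 259.8 CPM in kiPSC (-1.54 ± 0.12). Dnmt3l (5.0) without kEpiSC replicate 1, and Dnmt3l (6.77) without kEpiSC replicate 2, and Dnmt3l (5.01) and Phf19 (-3.84) without kiPSC replicate 2, and Phf19 (-2.43) without kiPSC replicate 1 kept their calls with a fold that moved by over 1.5 times.

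Of 27 tested imprinted genes 15 fell and 6 rose (3 without kEpiSC replicate 1, without kiPSC replicate 2 or with all 38 libraries), with a median of -1.52, and their summed level went from 4290 and 4620 CPM to 1430 and 1470 CPM. Phlda2, which limits placental growth, stood at 103 and 95 CPM in kEpiSC and 5.16 and 4.56 CPM in kiPSC (-4.33 ± 0.24). The adaptor gene Grb10 was at 609 and 622 CPM in kEpiSC and 66.6 and 97.8 CPM in kiPSC (-2.91 ± 0.16). Magel2 was at 16 and 24.1 CPM in kEpiSC and 0.803 and 0 CPM in kiPSC (-5.35 ± 0.84). Genes expressed from the maternal and from the paternal copy were both among those that fell. Plagl1, a zinc finger gene also called Zac1, moved against the list, from 4.36 and 3.76 to 205 and 319 CPM (6.01 ± 0.45), and so did Usp29 (higher, ratio 64.6, 95% counting interval 17.1 to 545). The tables hold no allelic reads, so that loss of imprinting was not measured. Magel2 (0 in the other kiPSC library) without kiPSC replicate 1, and Magel2 (-4.62) without kiPSC replicate 2 kept its call with a fold that moved by over 1.5 times.

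Many germline genes carry CpG-rich promoters that DNA methylation silences outside the germline. Of 30 such genes 23 passed the filter on low counts. A gene without reads in kEpiSC could pass only through other libraries, so that the counts describe the list only; 20 rose and 1 fell, by a median of 6.56, or 5.60 with genes at their bound. DESeq2 called 13 of the 23 higher, and with limma the median was 2.68 on the scale of log2(TPM + 1). The other 7 had at most 35 counts in any of the 4 libraries. The summed level of the list went from 59.8 and 72.6 CPM to 586 and 422 CPM. Dazl, an RNA-binding protein that licenses germ cells, stood at 0 in kEpiSC and at 59 and 59.7 CPM in kiPSC (at least 594-fold higher). Fkbp6, needed for piRNA production, stood at 0 and at 37.4 and 25.2 CPM (at least 326-fold higher), with no call by DESeq2 (adjusted p = 0.104). Hormad1, a protein of the meiotic chromosome axis, stood at 0 and at 35 and 20.5 CPM (at least 293-fold higher), and Stk31, a kinase with a Tudor domain, at 0 and at 10.1 and 8.94 CPM (at least 96.6-fold higher). In each of these 4 genes no read was found in either kEpiSC library. Tdrkh, a Tudor domain gene of the same piRNA pathway, was the 1 member that fell, from 39.5 and 48.4 to 1.15 and 0.701 CPM (-5.49 ± 0.46).

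The promoters of these 5 genes are shown because the list is defined by silencing at CpG-rich promoters, and Tdrkh because it moved against the list. Each holds 300 bases 5′ to 3′, 250 before and 50 after the start, from RefSeq (GRCm38.p6), and capitals mark the letters CACGTG, which the E-box factors of the germline repressor complex PRC1.6 and other factors can bind.
Dazl promoter, chr17:50293571-50293870, minus strand: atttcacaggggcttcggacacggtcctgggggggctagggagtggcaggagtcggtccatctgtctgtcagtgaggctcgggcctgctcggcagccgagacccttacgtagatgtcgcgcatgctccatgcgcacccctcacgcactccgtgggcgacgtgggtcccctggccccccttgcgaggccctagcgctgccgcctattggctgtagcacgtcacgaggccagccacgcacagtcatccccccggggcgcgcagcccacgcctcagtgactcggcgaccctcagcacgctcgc
Fkbp6 promoter, chr5:135349864-135350163, minus strand: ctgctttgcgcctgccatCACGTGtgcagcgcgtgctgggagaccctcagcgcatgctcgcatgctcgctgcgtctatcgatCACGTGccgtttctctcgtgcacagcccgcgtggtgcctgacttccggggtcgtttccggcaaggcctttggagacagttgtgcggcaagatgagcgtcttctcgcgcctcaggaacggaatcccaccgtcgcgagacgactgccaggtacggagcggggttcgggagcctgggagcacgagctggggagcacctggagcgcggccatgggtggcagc
Hormad1 promoter, chr3:95559427-95559726, plus strand: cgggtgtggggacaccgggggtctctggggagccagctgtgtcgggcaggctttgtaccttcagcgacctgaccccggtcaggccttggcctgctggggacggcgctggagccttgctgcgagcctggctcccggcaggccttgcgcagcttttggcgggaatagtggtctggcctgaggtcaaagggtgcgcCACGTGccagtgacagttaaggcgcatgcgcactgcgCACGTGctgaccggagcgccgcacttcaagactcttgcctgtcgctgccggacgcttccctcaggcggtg
Stk31 promoter, chr6:49395289-49395588, plus strand: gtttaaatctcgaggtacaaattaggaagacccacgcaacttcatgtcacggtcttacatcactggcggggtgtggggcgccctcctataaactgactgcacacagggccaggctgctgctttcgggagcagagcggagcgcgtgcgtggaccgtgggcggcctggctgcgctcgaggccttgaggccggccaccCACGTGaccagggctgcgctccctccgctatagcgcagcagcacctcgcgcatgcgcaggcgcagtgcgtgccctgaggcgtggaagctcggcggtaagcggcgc
Tdrkh promoter, chr3:94412994-94413293, plus strand: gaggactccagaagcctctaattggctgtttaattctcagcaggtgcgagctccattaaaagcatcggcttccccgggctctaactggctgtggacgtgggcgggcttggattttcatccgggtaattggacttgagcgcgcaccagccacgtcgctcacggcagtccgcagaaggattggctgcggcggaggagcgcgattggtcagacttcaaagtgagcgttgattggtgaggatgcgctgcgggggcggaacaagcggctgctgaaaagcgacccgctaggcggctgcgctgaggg
The promoter shown for Dazl has 28 CpG and 0 matches, that for Fkbp6 32 CpG and 2 matches, and that for Hormad1 24 and 2. That for Stk31 has 29 and 1, and that for Tdrkh 25 and 0. Fkbp6, Hormad1 and Stk31 each have another RefSeq promoter, not shown, that also holds CACGTG, with 21, 24 and 28 CpG. Of the 20 germline genes that rose, 16 matched a RefSeq promoter, with 19 promoters in all. Their median was 24 CpG, against 20 in the promoters of all genes tested and 8 in those of genes at least 32-fold higher in kiPSC. CACGTG, which reads the same on both strands, stood in 12 of the 19 promoters (63.2%). Counted by gene, it stood in a promoter of 9 of the 16 genes. Fkbp6, Hormad1 and Stk31 each entered the 12 with 2 overlapping promoters. CACGTG also stood in 53.1% of the 32 promoters of the whole list, in 9.72% of promoters of tested genes and in 7.15% of all 32851 promoters of this length. A match is a description of letters only, and no binding or methylation was measured here.

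Genes of the oocyte and of the two-cell embryo were also found. Here too a gene without reads in kEpiSC passed the filter only through other libraries, so that counts and medians are descriptions. Of 20 oocyte genes 9 could be tested, 7 rose and 1 fell. Ooep, a subunit of the subcortical maternal complex, went from 1 count to 71.8 and 127 CPM (higher, ratio 2811, 95% counting interval 504 to 111120), Khdc3, another subunit, from 0 to 32.2 and 28.7 CPM (at least 309-fold higher), and Sohlh2, a helix-loop-helix factor of germ cells, from 0 to 50.9 and 95.7 CPM (at least 688-fold higher). The oocyte factors Figla, Nobox and Gdf9 had at most 5 counts in each of the 4 libraries. The list was therefore present in part. Of 17 genes that mark the two-cell-like state, in which a small share of naive cells expresses genes of the early embryo, 7 were tested and 6 rose, 5 of the 7 being without reads in kEpiSC; with no filter beyond 1 count 8 of 14 rose. Zscan4f stood at 0 in kEpiSC and at 22.3 and 27.9 CPM in kiPSC (at least 245-fold higher), and Zscan4c at 0 and at 13.6 and 14.2 CPM (at least 139-fold higher); Zscan4 genes are near-identical copies, and how reads were split among them is uncertain. Of 13 genes of the Rhox cluster on chromosome X, homeobox genes of the germline and placenta, 5 were tested and rose, 4 of them without reads in kEpiSC; DESeq2 called 4, and with no filter beyond 1 count 6 of 10 rose. Rhox5 had the highest level per length in kiPSC (228 TPM) and stood at 0.990 and 1.61 CPM in kEpiSC and 84.5 and 59.4 CPM in kiPSC (5.78 ± 0.53), and the other 8 genes of the list had at most 12 counts in any of the 4 libraries.

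Genes of glycolysis mostly fell. Of 23 genes 18 fell, 4 rose and 1 had no call, and the summed level went from 37100 and 39600 CPM to 16700 and 14800 CPM. The transporters at both ends of the pathway were among the largest changes. The lactate exporter Slc16a3 stood at 742 and 896 CPM in kEpiSC and 32.2 and 64.3 CPM in kiPSC (-4.11 ± 0.37). The glucose importer Slc2a1 stood at 1908 and 2131 CPM in kEpiSC and 191 and 173 CPM in kiPSC (-3.47 ± 0.19). The phosphofructokinase gene Pfkl stood at 945 and 981 CPM in kEpiSC and 93.6 and 132 CPM in kiPSC (-3.10 ± 0.29). Pgk1, the first enzyme of the pathway to yield ATP, was at 2818 and 3047 CPM in kEpiSC and 383 and 381 CPM in kiPSC (-2.94 ± 0.22). Ldha, which makes lactate, stood at 2911 and 2972 CPM in kEpiSC and 359 and 574 CPM in kiPSC (-2.66 ± 0.20). Isozymes went in opposite directions. Hexokinase 1 (Hk1) stood at 45.1 and 51.7 CPM in kEpiSC and 258 and 277 CPM in kiPSC (2.47 ± 0.20). Hexokinase 2 (Hk2) was at 466 and 474 CPM in kEpiSC and 339.7 and 300.5 CPM in kiPSC (-0.55 ± 0.14). Pfkp was at 148 and 165 CPM in kEpiSC and 324 and 376 CPM in kiPSC (1.16 ± 0.32). Ldhb, the lactate dehydrogenase subunit that favours pyruvate, was at 90.6 and 87.5 CPM in kEpiSC and 457 and 128 CPM in kiPSC (1.72 ± 0.36), with replicate 1 of kiPSC far above replicate 2. Ldhb (0.51) without kiPSC replicate 1, and Ldhb (2.35) without kiPSC replicate 2 kept its call with a fold that moved by over 1.5 times.

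**Figure D4:**
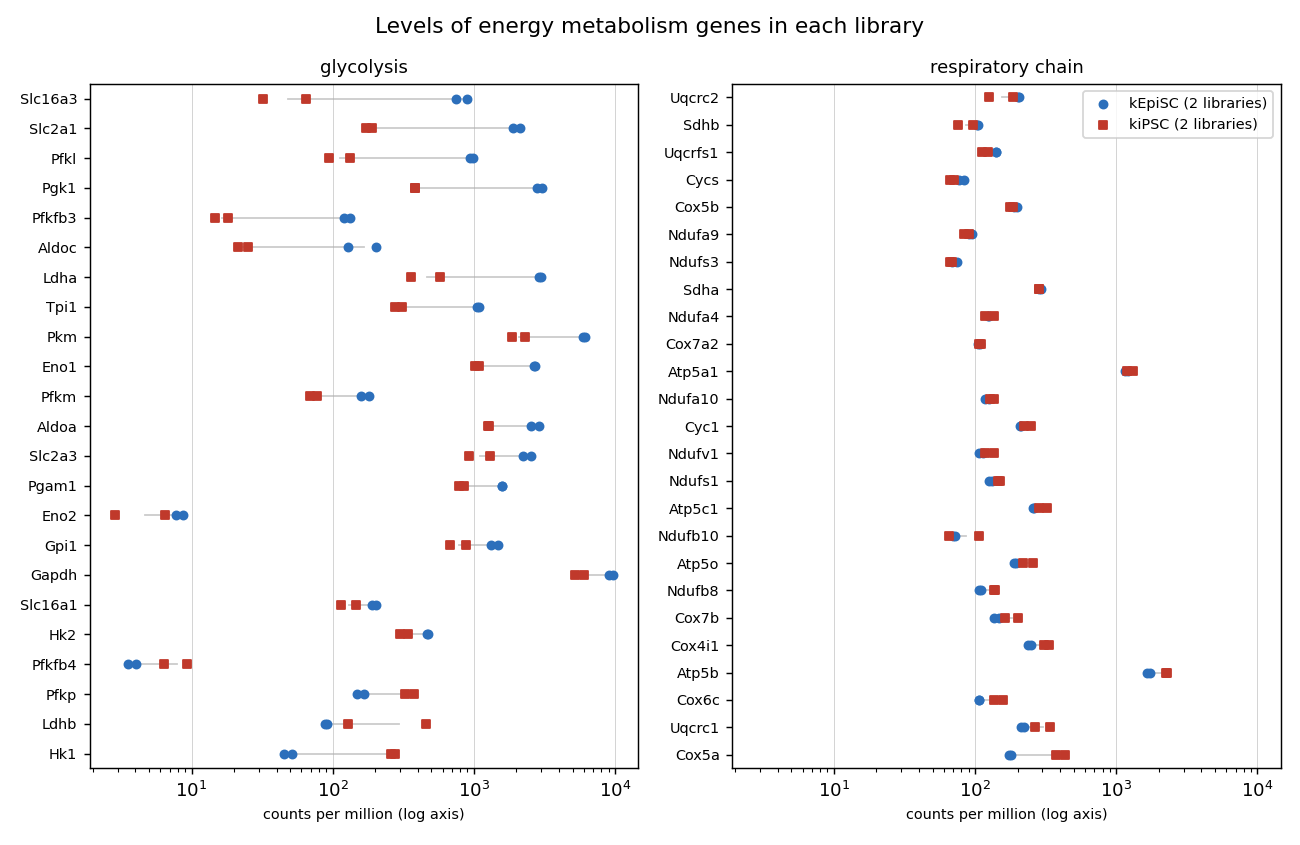
CPM (log axis) of each gene of glycolysis (left) and of respiratory chain genes (right) in the 4 libraries; circles are kEpiSC, squares kiPSC, and grey lines join the group means. Most glycolytic genes lie lower in kiPSC and Hk1, Ldhb, Pfkp and Pfkfb4 lie higher, while most respiratory chain genes lie at about the same level in all libraries.

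Genes of the response to hypoxia, many of them targets of the factor HIF1 as glycolytic genes are, fell in 13 of 16 tested cases and rose in 2. Adm, which encodes the peptide adrenomedullin, stood at 14 and 19.2 CPM in kEpiSC and 0.573 and 0.175 CPM in kiPSC (-5.29 ± 0.60). Egln3, a prolyl hydroxylase that marks HIF for degradation, stood at 244 and 293 CPM in kEpiSC and 16.1 and 18.7 CPM in kiPSC (-3.96 ± 0.20). Ndrg1 was at 364 and 446 CPM in kEpiSC and 51.4 and 23.5 CPM in kiPSC (-3.41 ± 0.26). Bnip3, a gene of mitophagy, was at 288 and 314 CPM in kEpiSC and 26 and 31.5 CPM in kiPSC (-3.39 ± 0.57). Hif1a itself fell by less, from 200.0 and 188 to 150.2 and 141 CPM (-0.41 ± 0.10). Epas1, which encodes HIF2-alpha, rose, from 8.91 and 16.2 to 62.6 and 56.2 CPM (2.24 ± 0.29). The adenylate kinase gene Ak4 rose from 145 and 170.3 to 508 and 864 CPM (2.12 ± 0.19). Oxygen tension in the cultures is not given in the sources used here. Subunits of the respiratory chain moved little: 9 of 26 rose, 1 fell, and 16 had no call, fewer calls (38.5%) than over all genes, and 4 rose with all 38 libraries in the fit. Cox5a, a subunit of complex IV, was the 1 gene past 2-fold, at 179 and 175 CPM in kEpiSC and 436 and 372 CPM in kiPSC (1.19 ± 0.11). Atp5b, a subunit of the ATP synthase, stood at 1646 and 1723 CPM in kEpiSC and 2259 and 2287 CPM in kiPSC (0.43 ± 0.09). Sdha, Ndufa4 and Cox7a2 had no call, with 285 and 293 CPM in kEpiSC and 283 and 283 CPM in kiPSC for Sdha. Adm (-6.45) and Ndrg1 (-4.12) without kiPSC replicate 1 kept their calls with a fold that moved by over 1.5 times.

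Amino acid supply fell in 18 of 26 genes and rose in 3, or in 5 without kiPSC replicate 2. Chac1, which degrades glutathione, stood at 62.6 and 75.8 CPM in kEpiSC and 4.01 and 3.85 CPM in kiPSC (-4.13 ± 0.73). The transporter gene Slc7a5 was at 938 and 999 CPM in kEpiSC and 218 and 177 CPM in kiPSC (-2.29 ± 0.24). Mthfd2, a mitochondrial enzyme of one-carbon metabolism, was at 290.0 and 307 CPM in kEpiSC and 62.3 and 72.7 CPM in kiPSC (-2.15 ± 0.29). Psat1, of serine synthesis, stood at 765 and 793 CPM in kEpiSC and 257 and 213 CPM in kiPSC (-1.73 ± 0.21). Tdh, threonine dehydrogenase, on which naive mouse cells depend for one-carbon units, moved against the list, from 25.7 and 25.8 to 838 and 510.0 CPM (4.71 ± 0.44). Of 28 genes of cholesterol and fatty acid synthesis 18 fell and 3 rose, by less. Lss, the enzyme that closes the sterol ring, stood at 331 and 374 CPM in kEpiSC and 122 and 151 CPM in kiPSC (-1.37 ± 0.17). Hmgcs1, at the entry of the pathway, was at 898 and 913 CPM in kEpiSC and 470.3 and 384 CPM in kiPSC (-1.08 ± 0.17). Insig1, which holds back sterol synthesis, rose, from 189 and 201 to 337 and 354 CPM (0.83 ± 0.18).

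Of 27 epithelial genes 13 fell and 6 rose (70.4% called, against 57.5% of all genes). Cdh1, E-cadherin, which holds colonies of both states together, had no call (739 and 714 CPM in kEpiSC and 776 and 755 CPM in kiPSC, 0.08 ± 0.17). Around it, the splicing regulator Esrp1 stood at 175 and 169 CPM in kEpiSC and 0.344 and 1.23 CPM in kiPSC (-7.91 ± 0.47). Krt19, described above, fell, and so did its partner keratin Krt18, at 114 and 129 CPM in kEpiSC and 1.15 and 6.66 CPM in kiPSC (-5.12 ± 0.46). Gjb5, a connexin of gap junctions, rose and stood at 0.330 and 0.805 CPM in kEpiSC and 20.4 and 19.1 CPM in kiPSC (5.09 ± 0.41). The mesenchymal list was split, with 5 of 14 genes higher and 4 lower (64.3% called). Fn1, fibronectin, rose from 1036 and 941 to 3564 and 2761 CPM (1.68 ± 0.12). Zeb1, a repressor of epithelial genes, rose from 5.94 and 7.11 to 35.1 and 33.6 CPM (2.40 ± 0.21). Its paralogue Zeb2 moved the other way (5.35 and 3.55 CPM in kEpiSC and 0.803 and 0.526 CPM in kiPSC, -2.66 ± 0.40). N-cadherin, Cdh2, stood at 44.5 and 43.5 CPM in kEpiSC and 6.65 and 7.88 CPM in kiPSC (-2.61 ± 0.14). Esrp1 (-7.13) and Krt18 (-4.20) without kiPSC replicate 1, and Esrp1 (-8.90) and Krt18 (-6.71) without kiPSC replicate 2, and Gjb5 (5.84) without kEpiSC replicate 2 kept their calls with a fold that moved by over 1.5 times.

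Of 25 tested genes of basement membranes and their integrin receptors 6 rose and 11 fell (68.0% called, against 57.5% of all genes). Nid1, nidogen, which links laminin to collagen IV, stood at 27 and 29.8 CPM in kEpiSC and 689 and 674 CPM in kiPSC (4.58 ± 0.20). The laminin chain Lama1, found in the first embryonic basement membranes, was at 4.62 and 4.49 CPM in kEpiSC and 131 and 71.1 CPM in kiPSC (4.48 ± 0.34). Other laminin chains were lower: Lama4 stood at 21.1 and 24.4 CPM in kEpiSC and 2.52 and 0.876 CPM in kiPSC (-3.64 ± 0.50) and Lamb3 fell to 3 counts (lower, ratio 23.2, 95% counting interval 7.78 to 114). The integrin genes Itga1 and Itgb8 fell as well, with 8.45 and 8.12 CPM in kEpiSC and 0.115 and 1.40 CPM in kiPSC for Itga1 (-3.65 ± 0.84) and 0 in kiPSC for Itgb8 (at least 11.2-fold lower). The fibroblast collagens given above rose in the same libraries; Nid1, unlike them, had nearly equal kiPSC libraries. Itga1 (-2.56) and Lama4 (-4.69) without kiPSC replicate 1, and Itga1 (-5.99) without kiPSC replicate 2 kept their calls with a fold that moved by over 1.5 times.

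In the list of G1 and S phase control 10 of 25 genes rose and 7 fell (68.0% called, against 57.5% of all genes). The CDK inhibitors Cdkn2a and Cdkn1a, of which the latter encodes the p53 target p21, rose. Cdkn2a stood at 2.64 and 1.27 CPM in kEpiSC and 31.3 and 24.2 CPM in kiPSC (3.82 ± 0.38). Cdkn1a stood at 53.5 and 52.2 CPM in kEpiSC and 341 and 322 CPM in kiPSC (2.65 ± 0.22). Ccnd2, cyclin D2, stood at 49.8 and 35.5 CPM in kEpiSC and 6.77 and 1.75 CPM in kiPSC (-3.20 ± 0.36). Its kinase Cdk6 was at 73.6 and 89.7 CPM in kEpiSC and 23.3 and 17.3 CPM in kiPSC (-1.99 ± 0.21). Ccnd1, Cdk4 and Ccne1 had no call (239 and 195 CPM in kEpiSC and 214 and 137 CPM in kiPSC for Ccnd1). In the list of mitotic genes 13 of 16 genes fell and 0 rose, all by less than 2-fold except Bub1 and Aurkb. Bub1, a spindle checkpoint kinase, was at 350.1 and 367 CPM in kEpiSC and 160.0 and 138 CPM in kiPSC (-1.27 ± 0.12). Aurkb, aurora kinase B, was at 203 and 246 CPM in kEpiSC and 104 and 107 CPM in kiPSC (-1.08 ± 0.15). Mki67, the proliferation marker, stood at 712 and 724 CPM in kEpiSC and 405 and 328 CPM in kiPSC (-0.97 ± 0.14). Ccnd2 (-4.61) without kiPSC replicate 1, and Cdkn2a (4.44) without kEpiSC replicate 1 kept their calls with a fold that moved by over 1.5 times. Ccnd1 (-0.68, adjusted p = 0.0169) without kiPSC replicate 1 gained a call.

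Antigen presentation and interferon genes split in 6 higher and 9 lower of 21 tested (71.4% called, against 57.5% of all genes). The immunoproteasome subunit Psmb8 fell to 2 counts (lower, ratio 106, 95% counting interval 29.1 to 876), and the peptide transporter gene Tap2 stood at 10.8 and 9.26 CPM in kEpiSC and 0.344 and 0.701 CPM in kiPSC (-4.30 ± 0.52). Ifitm1, an antiviral membrane protein, rose, from 18.6 and 14 to 102 and 66.4 CPM (2.37 ± 0.17). So did Irf9, a subunit of the interferon response factor ISGF3, from 7.65 and 5.57 to 31.7 and 25.1 CPM (2.10 ± 0.23). Genes of the sex chromosomes were read as a check of the labels. The Y-linked genes Ddx3y, Uty and Eif2s3y had no call and were expressed in all 4 libraries, with 97.1 and 107 CPM in kEpiSC and 109 and 109.5 CPM in kiPSC for Ddx3y. Xist, the transcript of the inactive X, stood at 1.12 and 1.07 CPM in kEpiSC and 8.49 and 3.68 CPM in kiPSC (2.48 ± 0.43). Kdm5d, a further Y-linked gene and a histone demethylase, stood apart, at 61.4 and 59.4 CPM in kEpiSC and 5.16 and 1.23 CPM in kiPSC (-4.10 ± 0.33). Kdm5d (-5.62) and Xist (1.71) without kiPSC replicate 1 kept their calls with a fold that moved by over 1.5 times.

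The largest changes over all genes, among those with a mean of at least 10 CPM in the higher group, went from or to at most a few counts. Among the 15 largest gains that no list holds were Dpp4, a membrane peptidase (0 in kEpiSC, 58.8 and 145 CPM in kiPSC, at least 932-fold higher), Triml2, a gene of the TRIM-like family (0, 89.3 and 93.6 CPM, at least 912-fold higher), and Cdyl2, a chromodomain gene (0, 89.9 and 76.9 CPM, at least 849.5-fold higher). The ubiquitin ligase gene Trim25 went from 2 counts to 270.1 and 242 CPM (higher, ratio 3893, 95% counting interval 1077 to 32156), and Rbmxl2, a testis gene related to the RNA-binding protein RBMX, from 1 count to 165 and 187 CPM (higher, ratio 5220, 95% counting interval 936 to 206270). D1Pas1, an RNA helicase of spermatocytes, reached 27.2 and 56.6 CPM from 0 (at least 389-fold higher), and Fmr1nb 40.3 and 35.2 CPM from 0 (at least 383-fold higher). Among the 15 largest losses that no list holds were the zinc transporter gene Slc39a8, at 313 and 338 CPM in kEpiSC and 0.344 and 0.175 CPM in kiPSC (-10.12 ± 0.23), and Fndc3c1. The latter went from 236 and 235 CPM to 1 count (lower, ratio 3392, 95% counting interval 609 to 134000). The sulfotransferase gene Chst1 (69.6 and 80.8 CPM to 0, at least 361-fold lower) and Klhl4 (82.9 and 61.1 CPM to 0, at least 347-fold lower) fell as well. So did the receptor genes Cysltr1 (19.2 and 18.6 CPM to 0, at least 90.9-fold lower), Aplnr (13.5 and 10.9 CPM to 0, at least 58.9-fold lower) and Gpr37. The last of them went from 53.1 and 59.8 CPM to 1 count (lower, ratio 814, 95% counting interval 146 to 32164). Slc39a8 (-10.75) without kiPSC replicate 1 kept its call with a fold that moved by over 1.5 times.

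The change was set beside that between cells without the transgene, naive ESC (embryonic stem cells, n = 5 libraries) and primed EpiSC (n = 4 libraries), with which kiPSC and kEpiSC share no library. Per the methods ESC were grown in N2B27 with LIF and inhibitors of MEK and GSK3 (2iL) and came from the same cross as EpiSC, while the labels of ESC replicates 1 and 2 give CBA/CaJ X C57BL/6J as strain and no strain for the others. Strain and state cannot be told apart here. Effective length fell short of gene length by 73.5 bases in ESC replicates 1 to 4, 176 bases in ESC replicate 5 and 189 to 192 bases in EpiSC. The part of this distance in the change of ESC against EpiSC was not tested. Levels in the following are CPM of a fit of these 13 libraries, which tested 13923 genes. In that fit 5394 genes (38.7%) were called for kiPSC against kEpiSC and 7092 (50.9%) for ESC against EpiSC. The 4531 genes called in both made up 84.0% of the former and 63.9% of the latter, and 4521 of them had the same direction in both pairs and 10 did not. Over all genes the 2 log2 fold changes correlated with r = 0.87, a description across genes. The difference of the 2 changes was called for 20 genes (0.144%), 5 with the higher value in kiPSC against kEpiSC, and 1384 genes had an unadjusted p under 0.05 by edgeR's quasi-likelihood test.

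Klf4 had the smallest adjusted p. It stood at 0.931, 2.17, 2.39 and 1.08 CPM in EpiSC and 309, 172, 172, 349 and 235 CPM in ESC, and at 69.5 and 98.1 CPM in kEpiSC and 288 and 266 CPM in kiPSC. The step was 7.18 ± 0.35 in the former pair and 1.72 ± 0.33 in the latter, a difference of -5.45 ± 0.50 (adjusted p = 8.10e-04). EpiSC were near 0 and kEpiSC were not, while ESC and kiPSC overlapped. The line was made to overexpress Klf4, so that its higher starting level was set by the design. The smaller step and its call are therefore no independent finding. Expected counts per gene do not separate transcripts of the transgene from those of the endogenous gene. Khdrbs2, which encodes an RNA-binding splicing factor, also differed in the starting cells, with 11.6, 10.5, 12.6 and 9.74 CPM in EpiSC and 29.9 and 30.4 CPM in kEpiSC. It rose to 114, 113, 122, 114 and 51.9 CPM in ESC, where replicate 5 was lowest, but stood at 27.3 and 22.2 CPM in kiPSC, a difference of -3.49 ± 0.41 (adjusted p = 0.00597). Nefm, the medium neurofilament chain, went the other way. It stood at 34.9, 82.9, 101 and 92.3 CPM in EpiSC and 19.9, 26.9, 16.6, 14.8 and 44 CPM in ESC, but at 3.83 and 1.81 CPM in kEpiSC and 27.5 and 48 CPM in kiPSC, a difference of 5.38 ± 0.72 (adjusted p = 0.0196).

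3 of the 20 genes belong to the Nodal list. Nodal stood at 195, 119.8, 71.7 and 95.2 CPM in EpiSC and 63.6, 93.1, 85.2, 83.6 and 105 CPM in ESC, and rose from 42.2 and 26.8 CPM in kEpiSC to 147 and 178 CPM in kiPSC, with changes of -0.48 ± 0.25 and 2.24 ± 0.38 and a difference of 2.72 ± 0.46 (adjusted p = 0.0371). Both kEpiSC libraries lay below all 4 EpiSC libraries. Smad7 changed by 0.42 ± 0.16 in ESC against EpiSC and by 2.16 ± 0.24 in kiPSC against kEpiSC, a difference of 1.74 ± 0.28 (adjusted p = 0.0357). Pmepa1, a further feedback inhibitor of the pathway, changed by -1.60 ± 0.20 and 0.66 ± 0.30, a difference of 2.26 ± 0.36 (adjusted p = 0.0357); it stood at 61.9, 70.2, 58 and 71.1 CPM in EpiSC and 23.9 and 13.7 CPM in kEpiSC. Of the genes with the lower value in kiPSC against kEpiSC, Klf9, a Klf relative that responds to glucocorticoids, stood at 95.3 and 99.4 CPM in kEpiSC and 131 and 98.6 CPM in kiPSC, both near the level of ESC and above that of EpiSC (139, 110.0, 119, 122 and 90.3 CPM and 23.7, 21, 35.9 and 26 CPM, difference -1.88 ± 0.30). Lpl, lipoprotein lipase, rose in ESC (1.59 ± 0.28) and was lower in kiPSC (-1.35 ± 0.39), a difference of -2.94 ± 0.48. These calls depended on single libraries. Without 1 of the 13 libraries 1 to 82 genes were called, 1 without kiPSC replicate 2 and 82 without ESC replicate 5. Klf4 was called in each of the 13 fits, Khdrbs2 in 12, Nefm in 9, Nodal, Pmepa1, Klf9 and Lpl in 3 and Smad7 in 2. Khdrbs2 was lost without kiPSC replicate 2 (adjusted p = 0.0858).

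List by list, the medians of the 2 changes were close for naive genes (6.48 in kiPSC against kEpiSC and 6.92 in ESC against EpiSC, 26 genes tested in this fit) and for primed genes (-3.47 and -2.85, 23 genes). They lay apart for the hypoxia response (-2.59 and -0.52, 17 genes), streak genes (-0.90 and -4.29, 17 genes) and fibroblast genes (1.82 and -0.59, 12 genes). In none of these 3 lists was the difference called for a member by edgeR's quasi-likelihood test, and 12 of the 17 hypoxia genes, 1 of the 17 streak genes and 1 of the 12 fibroblast genes had an unadjusted p under 0.05, as did 9.94% of all genes tested. By the same test 8 of the 26 naive genes had an unadjusted p under 0.05, and 1 difference was called, that of Klf4. Among primed genes it was 2 of 23, with 0 called. Close medians therefore do not mean that each naive gene changed alike in both pairs. For 1 member of the hypoxia list, Ankrd37, whose difference had no call by edgeR's quasi-likelihood test (adjusted p = 0.185), levels stood at 1.80 to 8.54 CPM in EpiSC and 45 to 65.4 CPM in kEpiSC, against 2.96 to 15 CPM in ESC and 5.58 to 6.26 CPM in kiPSC. EpiSC was not tested against kEpiSC. Whether the wild-type and the transgenic cells were grown or harvested together is stated neither in the labels nor in the methods, so that transgene and culture cannot be told apart.

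**Figure D5:**
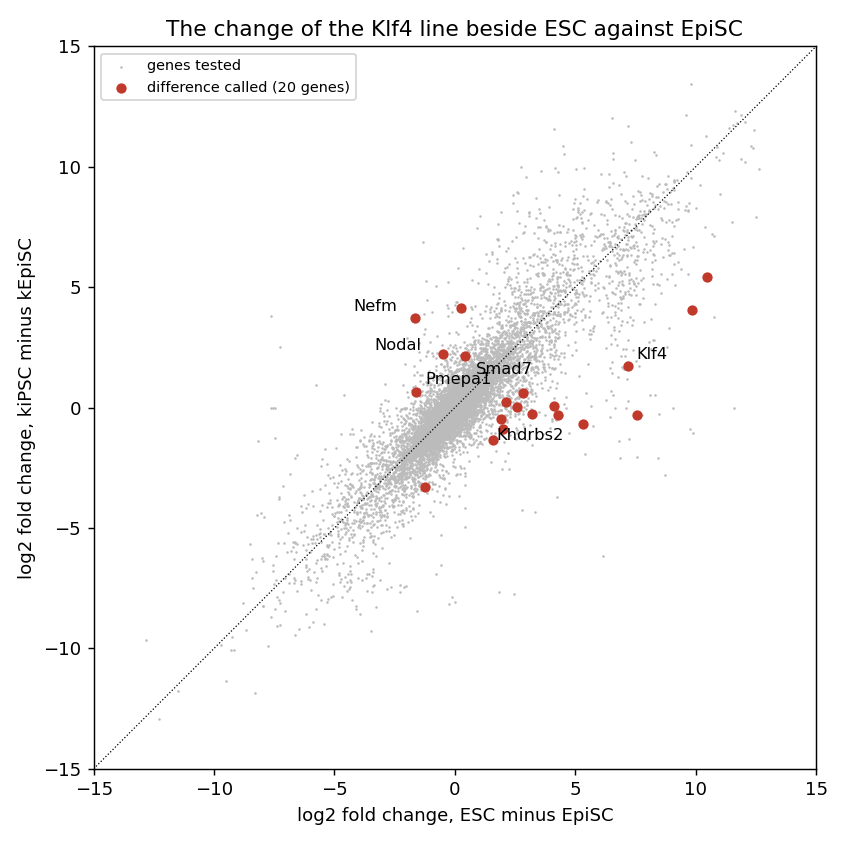
Log2 fold change of kiPSC against kEpiSC over that of ESC against EpiSC for 13923 genes in the fit of 13 libraries; each point is a gene, red points are the 20 genes whose difference was called, and the dotted line marks equal changes. Klf4 and Khdrbs2 lie below the line and Nefm, Nodal, Smad7 and Pmepa1 above it.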

How the data were processed

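RNA was sequenced from 38 libraries in 18 groups. Per the labels and the study's methods, the authors used Bowtie2 for alignment (mm10) and RSEM for counting, without versions. The methods list, under RNA-seq, removed mitochondrial reads and a quality cut-off for alignments, beside steps of peak calling, and the deposited tables hold 0 mitochondrial and 0 Rpl or Rps genes. Expected counts, as deposited, are unnormalized estimates by RSEM of the reads of each gene; they were rounded to whole numbers. The deposited TPM values, which the authors obtained by dividing by effective length, were used for levels per length and in 1 alternative. The FPKM values were not used. Symbols and positions came from GENCODE M21 (28756 of 29267 genes, 99.69% of the counts of the 4 libraries).

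The main comparison used edgeR 4.0.16 in R 4.3.3: TMM scaling, filterByExpr (min.count 10), and the quasi-likelihood F test over the 17 libraries of the Klf4 line (14892 genes, 9 residual degrees of freedom), with Benjamini-Hochberg adjustment at 0.05. The SE is the absolute log2 fold change divided by the square root of F. The same test over 13 libraries (13923 genes, 9 residual degrees of freedom) compared the change with that of ESC against EpiSC. The scripts were checked on simulated data. Alternatives were DESeq2 1.42.0, limma 3.58.1 on log2(TPM + 1), RLE factors, a filter at 1 CPM in 2 libraries or at 1 count only, other sets of libraries, a replicate block, and each library left out. Library totals, 2.16 to 15.9 M over the series, set how finely genes with few reads were measured. Intervals and lower bounds cover counting error at a confidence level of 95%.

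The libraries compared, the 36 gene lists and the tests were chosen with earlier results of these data known. Up to 6 called members of each list with the largest changes were named, with members that did not pass, as were the 15 largest changes in each direction over all genes (at least 10 CPM in the higher group, groups apart, no clone names), up to 10 in each direction of the difference, list members among the 5 least changed over 100 CPM, and Fgf5, Sox2, Pou5f1, Jun, Klf2, Klf4, Dppa5a, Zfp42, Tfcp2l1, Esrrb and Nanog. Chosen outside this rule, after their values were seen, were Ak4, Axin2, Bmp4, Dcn, Dnmt1, Epas1, Fgf4, Fgfr1, Fzd2, Grb10, Hif1a, Hk1, Hk2, Insig1, Irf9, Lama4, Ldha, Ldhb, Lef1, Lin28a, Mapk10, Nkd1, Otx2, Pfkp, Psat1, Tdrkh and Tead2. Some genes that the rule also named are not reported here.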

Additional observations from a re-analysis of the deposited data

Results flagged for a closer look

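By edgeR's quasi-likelihood test, 20 genes changed differently from kEpiSC to kiPSC than from EpiSC to ESC (adjusted p under 0.05 for the difference itself); 5 of them rose more in kiPSC, or fell less, and 15 rose less or fell more. Values are the log2 change of kiPSC against kEpiSC minus that of ESC against EpiSC. Higher were Nefm (5.38), Zfp775 (3.88), Nodal (2.72), Pmepa1 (2.26) and Smad7 (1.74). Lower among genes with names other than clone names were Zfp977 (-5.82), Klf4 (-5.45), Khdrbs2 (-3.49), Lpl (-2.94), Unc13d (-2.37), Smtnl2 (-2.21), Acsl5 (-2.07) and Klf9 (-1.88). The others were Gm38391 (-7.87), Gm37750 (-6.02), AU018091 (-5.08), Gm10269 (-4.57), Gm37758 (-4.05), BC051077 (-2.88) and the gene without a symbol ENSMUSG00000063180 (-2.52). The call for Klf4, the gene that kEpiSC were made to overexpress, was made in each of 13 fits without 1 library. That for Khdrbs2 was made in 12 of 13.

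For these genes, 5 of 40 groups of ESC or EpiSC libraries held a library far from the rest of its group. In 3 of the 5 it was ESC replicate 5, at 169 CPM for ENSMUSG00000063180, 17.4 CPM for Gm10269 and 51.9 CPM for Khdrbs2, in each case lower than the other ESC libraries. In the other 2 it was EpiSC replicate 2, at 0.362 CPM for AU018091 and 0.724 CPM for Gm38391, where the other EpiSC libraries were at 0. These values stand for 1 count and 2 counts. A group otherwise at 0 is set apart by any count, and the genes were selected for a called difference. No rate expected by chance therefore applies to the 5 groups. ESC replicate 5 also had the most counts of the ESC libraries (8.96 M, against 3.61 to 4.37 M). Its effective length fell short of gene length by 176 bases, against 73.5 bases in ESC replicates 1 to 4. By this measure ESC replicates 1 to 4 stood apart, since all other libraries of the series lay between 133 and 192 bases. The part of depth and of this distance in the differences was not tested.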

How the results depend on the processing

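The count of genes called between kiPSC and kEpiSC (8559) was within 1.5 times of itself in 9 alternatives to the fit (7235 to 9262 genes) and when each library was left out in turn (7240 to 8269 genes), and was 5394 in the fit with ESC and EpiSC, which holds 13 libraries with a larger spread. With limma on log2(TPM + 1) 56.0% of the calls were higher in kiPSC, against 49.1%. The count for the difference from ESC against EpiSC (20) was less settled. It was 170 with DESeq2 (42.4% higher, against 25%), 250 with all 38 libraries in the fit (33.6% higher), and 1 with ESC replicate 5 as the only ESC library, where fewer libraries remain. Leaving out 1 library gave 1 to 82 genes, with 1 without kiPSC replicate 2, 82 without ESC replicate 5 and 42 without EpiSC replicate 1; the cause was not tested. Groups share replicate numbers 1 and 2, but deviations of libraries with the same number were not correlated (r = 0.013 across 11199 genes, 2 pairs). With the replicate block 8701 genes were called in the first comparison and 70 in the difference. Of the 204 genes named, 184 were called. Without 1 library 4 of these lost the call (Axin2, Bmp4, Nkd1 and Dcn), and under another alternative 13 did. In the fit with ESC and EpiSC these were Axin2, Bmp4, Col1a1, Col3a1, Dcn, Hif1a, Hk2, Insig1, Nkd1, Pfkp, Xist and Zeb2; Bmp4, Col1a1, Dcn, Hif1a, Hk2, Pfkp and Xist also lost it with all 38 libraries, Dcn, Xist and Zeb2 with limma, and Bmp4 and Dcn with the 4 libraries alone. Fkbp6 lost it with DESeq2. Of the genes without a call 7 gained one under an alternative (Ccnd1, Ctnnb1, Egr1, Fos, Gata6, Jund and Pou5f1). Egr1 (0.11) was called lower without kiPSC replicate 1 (-1.52) and higher without kiPSC replicate 2 (0.81). Of 56 list counts of at least 3 genes, 17 moved by over 1.5 times in the fit with ESC and EpiSC, 5 with all 38 libraries, 3 with limma and at most 3 without any 1 library. In the fit with ESC and EpiSC, 11 genes fell among cholesterol and fatty acid genes (18 in the fit of 17 libraries), 6 in the Nodal list (11), 5 in the AP-1 family (8), 5 among antigen and interferon genes (9) and 4 in the BMP list (7), and 2 rose in the respiratory chain (9), 5 in the WNT list (8) and 5 among DNA methylation genes (8). Depth limits genes with few reads, more so in kiPSC replicate 2 (5.66 M) than in kEpiSC (15.8 M or more).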

Other observations

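Promoters, taken as the RefSeq windows from 250 bases before to 50 bases after each start (GRCm38.p6), were described by their letters. The median number of CpG was 8 in the 480 promoters of called genes at least 32-fold higher in kiPSC and 11 in the 237 promoters of those at least 32-fold lower, against 20 in the 14223 promoters of genes tested and 7 in all 32851 promoters. Both 32-fold sets were thus closer in CpG to all promoters than to those of genes tested. AAGGTCA, letters that Esrrb can bind, was present on either strand in 7.71% of the higher set and 2.53% of the lower set. It was present in 3.22% of promoters of genes tested and 4.72% of all promoters. TGANTCA, the AP-1 letters, was present in 8.33% and 8.86%, against 5.05% of genes tested and 7.81% of all promoters. GGGTGTG, letters that Klf factors can bind, was present in 10% and 7.17%, against 8.49% and 7.95%. These shares are descriptions of letters without a test, and genes with several starts count more than once.

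At the other end, list members with over 100 CPM that moved least included Sesn2, a stress-induced gene (log2 fold change -0.02), and the respiratory chain subunits Ndufa4 (0.03) and Cox7a2 (0.03).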
